A study of Rattus norvegicus with 4 samples.

Results

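Chromosome 17 of the rat was followed as a whole, as the set of its open chromatin regions (OCRs) in retinal ganglion cells (RGCs) before and after birth. All OCRs that the deposited lists place on chromosome 17 were taken, duplicates were dropped, and OCRs of different libraries that overlapped by at least 1 bp were merged. This gave 9216 regions of 228726 in the whole series, and the other 19 numbered chromosomes together held 215499. The members were chosen by the calls and ordered by the −log10 q values of these same lists, so every value that compares the stages is given as a description, with no test.

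RGCs were purified from Sprague Dawley rats, with 2 libraries from embryonic day 21 (E21) and 2 from postnatal day 11 (P11). The cells were immunopanned, which removed macrophages with an antibody and then held back cells that carry Thy1 at their surface, and the study states that each replicate came from another litter. Before the assay 300000 cells a library were frozen, per the labels, and the method was the assay for transposase-accessible chromatin (ATAC-seq). The 2 stages lie on either side of the loss of axon growth capacity by these neurons, and the comparison asks which stretches of chromatin open or close over that interval.

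ATAC-seq relies on a transposase that inserts adapters where DNA is not covered by nucleosomes, so a pile of fragments marks a promoter, an enhancer or another site held open by bound factors. Regions open at every stage are often promoters of genes that most cells use, while regions open at a single stage are more often distal elements. In the RefSeq gene table of a later rat assembly, chromosome 17 carries Klf6, a transcription factor linked to axon growth, Ntrk2, the receptor of the neurotrophin BDNF, Sox4, a transcription factor of developing neurons, and Gad2, which makes the transmitter GABA. Of 70 genes listed for this chromosome, that table placed 69 on it and Rgs7 on chromosome 13. No region was assigned to a gene, and the markers of RGCs and of other retinal cells were not checked, because no annotation of the lists' build, rn6, was used here.

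The 4 lists held between 125917 and 166702 OCRs in all, and the shortest was that of E21 replicate 1. The lists give no reads per region. The pileup, the count at the summit of an OCR, was solved from the deposited fold and p value. It was a whole number within 0.02 for 100% of OCRs. It is written here in fragments, but the settings of the calls are not given and the unit may be a read end. The genome-wide background pileup, which follows depth, was 4.80 fragments in E21 replicate 1, 5.03 in E21 replicate 2, 4.30 in P11 replicate 1 and 4.17 in P11 replicate 2. Depth, list length and stage cannot be told apart with 2 libraries each. The lowest pileup of an OCR on chromosome 17 was 14 fragments in both E21 libraries and 13 in both P11 libraries. A region that was not called may still have held fragments. Where the local background was high it may have held more than these, since a call weighs the pileup against that background.

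More of chromosome 17 was called open at P11. E21 replicates 1 and 2 had 4621 and 5769 OCRs there, and P11 replicates 1 and 2 had 6463 and 7129. The stages did not overlap, and the P11 mean was 1.31 times the E21 mean. On the other numbered chromosomes the counts were 119086, 146047, 145838 and 156585 in the same order, so the stages overlapped there and the P11 mean was 1.14 times the E21 mean.

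Chromosome 17 also took a larger part of each P11 list. It held 3.74% and 3.80% of the OCRs on numbered chromosomes at E21 and 4.24% and 4.35% at P11. The difference of 0.531 percentage points (3.77 ± 0.0456 at E21 against 4.30 ± 0.0785 at P11, mean ± SD, n = 2 each) was larger than the spread between replicates. With every list cut to an equal number of its strongest OCRs it was 0.594 points. The length covered rose in the same order, at 2.14 and 2.79 Mb for E21 and 3.04 and 3.39 Mb for P11. The single OCRs were alike in width, with medians of 383 and 396 bp at E21 and of 393 and 400 bp at P11, which overlapped. Their median fold over background was lower at P11, at 4.65 and 4.84 against 5.69 and 5.47, and the other chromosomes showed the same lower fold, with 4.61 and 4.84 against 5.69 and 5.47. Within their own lists the OCRs of chromosome 17 were of middling strength, with a median percentile between 48.8 and 51.0, where 0 is the weakest and 100 the strongest OCR by −log10 q.

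**Figure D1:**
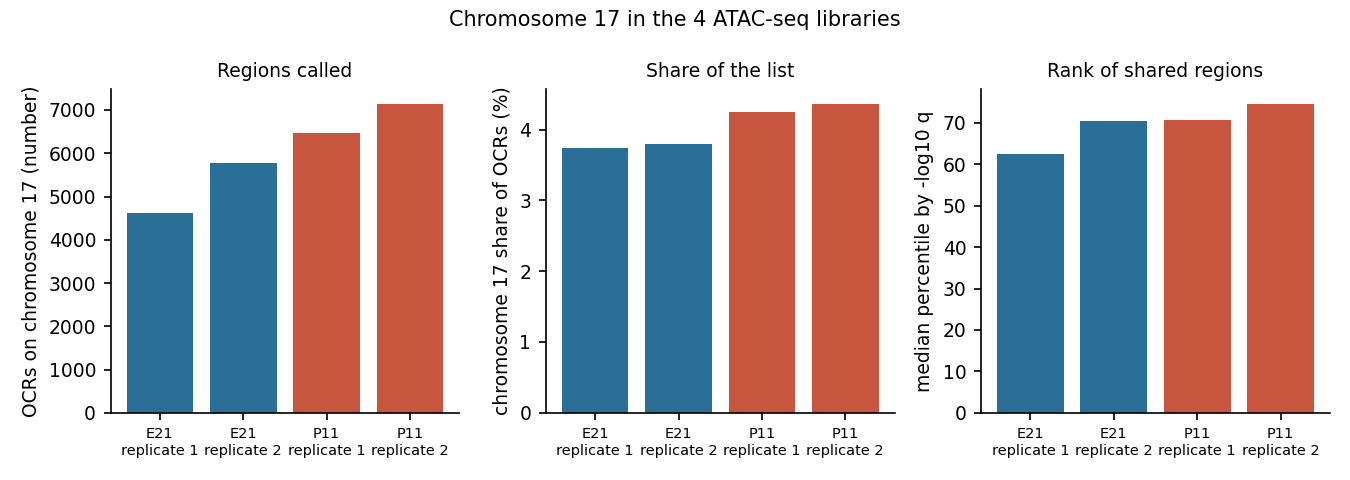
Bars give, for each of the 4 libraries, the OCRs called on chromosome 17, their share of the OCRs on numbered chromosomes in percent, and the median percentile of the regions called in all 4 libraries. Both P11 libraries (6463 and 7129 OCRs) stand above both E21 libraries (4621 and 5769) in the first 2 panels, while in the last P11 replicate 1 at 70.7 is barely above E21 replicate 2 at 70.5.

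A region was named stage-specific where the 2 libraries of a stage had it and the 2 of the other stage lacked it. On chromosome 17, 474 regions were E21-specific, or 5.14% of its regions, where the other numbered chromosomes had 7.72%. In the other direction 1440 regions were P11-specific, or 15.6%, where the others had 12.4%. The P11-specific regions therefore outnumbered the E21-specific by 3.04 to 1 on chromosome 17 and by 1.60 to 1 elsewhere. The chromosome held 4.10% of all regions on numbered chromosomes, 2.77% of the E21-specific and 5.12% of the P11-specific.

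The ratio depended on list length, but the distance from the other chromosomes did so less. With lists of equal length, the ratio was 1.84 on chromosome 17 and 0.961 on the others, with 577 E21-specific and 1063 P11-specific regions. The ratio of the 2 ratios was 1.89 as deposited and 1.92 with equal lists. In the 4 pairings of 1 E21 with 1 P11 library, regions called only in the P11 library were counted over those called only in the E21 library. This ratio ran from 1.39 to 4.02 on chromosome 17 and from 0.960 to 2.33 on the others. Chromosome 17 was higher by a factor of 1.45 to 1.73 in all 4 pairings, which share libraries and are not independent. The lowest value of both came from E21 replicate 2 with P11 replicate 1, and the highest from E21 replicate 1, the shortest list, with P11 replicate 2, the longest.

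Among the 20 numbered chromosomes, chromosome 17 had the highest ratio. The next were chromosome 14 at 2.23 and chromosome 9 at 2.09, the median of the others was 1.62, and chromosome 10 was lowest at 1.03. It also had the lowest share of E21-specific regions, before chromosome 14 at 6.43%, and the highest share of P11-specific regions, before chromosome 14 at 14.4%. It was not the largest or the most crowded chromosome, since it ranked 12th by number of regions and was the third most dense at 101 regions per Mb, in a range from 71.5 to 107 on the others.

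**Figure D2:**
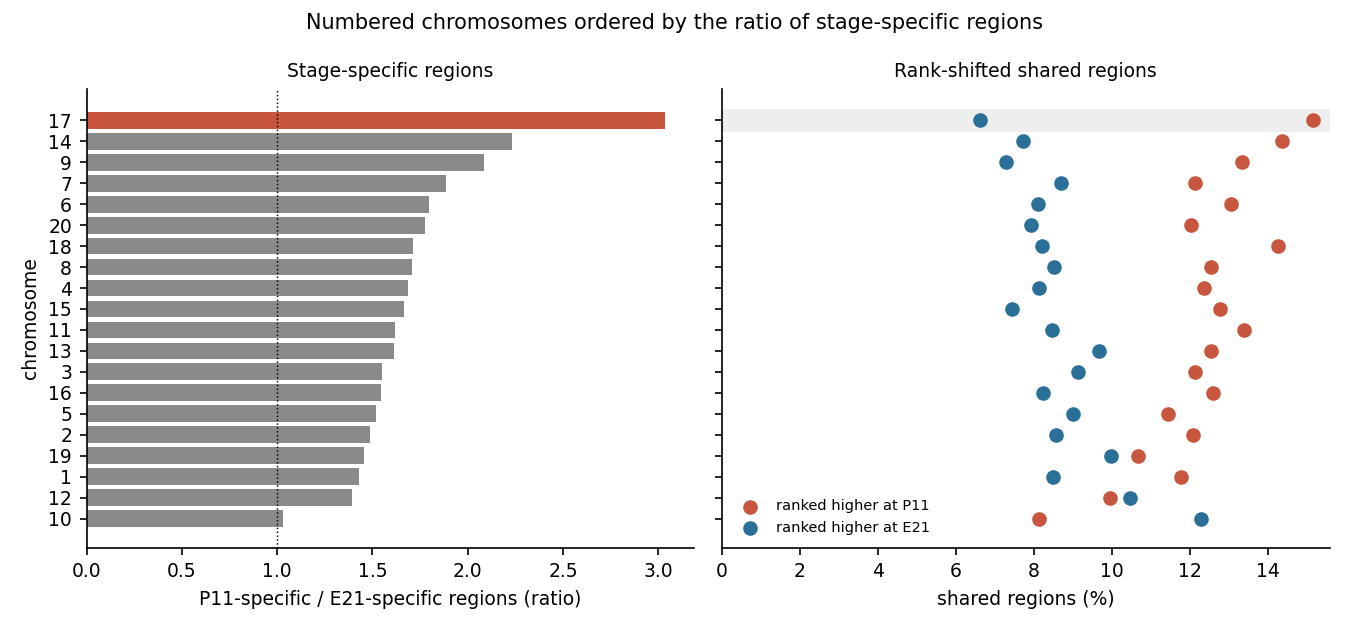
The left panel gives the number of P11-specific regions over that of E21-specific regions on each numbered chromosome, and the right panel the percent of shared regions ranked higher at P11 (red) or at E21 (blue). Chromosome 17 has the longest bar at 3.04, ahead of chromosome 14 at 2.23, and the widest gap between its points, 15.2% against 6.62%.

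Shared regions, those called in all 4 libraries, had a relatively higher summit pileup at P11 on chromosome 17. The mean log2 pileup of the 3247 shared regions of chromosome 17 was taken minus that of the 77850 shared regions on the other numbered chromosomes of the same library. It was −0.10 and −0.09 for E21 and 0.00 and 0.09 for P11, so the stages did not overlap and differed by 0.14. The local background around these summits, measured in the same way, was −0.06 and −0.04 for E21 and 0.01 and 0.08 for P11, a difference of 0.10. The fold, which divides the pileup by that background, differed by 0.05, from −0.05 in both E21 libraries to −0.01 and 0.01 at P11. The pileup difference of chromosome 17 was the highest of the 20, where the others ran from −0.25 on chromosome 10 to 0.11 on chromosome 14. The background difference was the second highest, behind chromosome 14 at 0.10. Across the 20 chromosomes, which share the same 4 libraries, the ratio of stage-specific regions rose with the pileup difference (Spearman's rho = 0.856) and with the background difference (rho = 0.817). The stretch over which the local background was taken is not given, and it may hold the fragments of the region itself. The pileup and background differences may thus not be separate. Their part in the counts of called regions was not tested.

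Stage-specific regions were weaker and narrower than shared regions, and the rule for the classes favours both. A merged region spans the OCRs of all libraries that called it, 4 for a shared and 2 for a stage-specific region. A region missing from 2 lists is also more likely to be a weak call. How much of the difference comes from the rule was not tested. The median width was 346 bp for E21-specific, 424 bp for P11-specific and 708 bp for shared regions of chromosome 17, close to 347, 414 and 710 bp on the other chromosomes. No E21-specific region reached 1 kb, against 1.81% of the P11-specific and 22.0% of the shared. The median percentile of the E21-specific regions was 29.0 and 37.1 in the 2 E21 libraries, with a median pileup of 27 and 32 fragments. That of the P11-specific regions was 36.4 and 41.2 in the 2 P11 libraries, with 25 and 28 fragments. The P11-specific regions of chromosome 17 were thus not weaker calls than those elsewhere, which lay at 34.5 and 38.6. Of the P11-specific regions 319 (22.2%, others 18.6%) reached the 50th percentile in each P11 library and 62 (4.31%, others 3.23%) the 75th. Of the E21-specific regions 52 (10.97%, others 13.7%) and 4 (0.844%, others 1.03%) did so.

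The strongest E21-specific regions were single sites spread along the chromosome. On build rn6, chr17:61723417-61724019 was at the 83.0 percentile in E21 replicate 1 and the 79.5 in E21 replicate 2, with folds of 12.4 and 10.7 and pileups of 85 and 76. The region chr17:23366679-23367462 stood at the 78.2 and 85.9 percentile with folds of 11.7 and 14.7. Both had clear summits in the 2 E21 libraries and no call at P11. The third, chr17:36336622-36337089, was of another kind, where 192 and 174 fragments stood on 44.3 and 42.7 of local background, which gave a fold of only 4.26 and 4.01. Its background was far above the genome-wide level of these libraries. The other 3 of the 6 strongest were chr17:83065692-83066111, chr17:23945468-23945979 and chr17:80842729-80843412, with folds between 9.31 and 13.6.

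Against the 6 strongest E21-specific regions, the 6 strongest P11-specific regions ranked higher in their own lists, with −log10 q values that overlapped. The leading region, chr17:66422441-66424318, was the widest of them at 1878 bp and was at the 92.0 percentile in P11 replicate 1 and the 90.1 in P11 replicate 2, with folds of 9.29 and 8.34 and pileups of 84 and 82. It was 1 broad region in which both P11 libraries agreed closely. The region chr17:42207742-42208662 had 61 and 91 fragments and percentiles of 88.1 and 95.3, and chr17:10973724-10974383 had 63 and 91 fragments and percentiles of 88.7 and 94.3. In both, P11 replicate 2 was the stronger library. The other 3 of the 6 strongest were chr17:69912386-69912980, chr17:31136279-31137337 and chr17:84978289-84978800, with percentiles between 88.0 and 91.9. The −log10 q ran from 39.0 to 72.4 in these 6 and from 34.1 to 73.1 in the 6 strongest E21-specific regions. Over all OCRs of chromosome 17 its median was lower in the P11 libraries (10.6, 11.8) than in the E21 libraries (16.9, 16.4). A rank held in a P11 list thus does not compare in strength with the same rank in an E21 list.

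Most stage-specific regions were not within 2 kb of a shared region. An OCR that overlaps a shared region is merged into it, so the rule leaves out the nearest cases. The distances were not set against random placement. The median distance to the nearest shared region was 6.82 kb for E21-specific and 7.30 kb for P11-specific regions, against 8.90 and 6.67 kb on the other chromosomes. Within 2 kb of a shared region were 20.04% of the E21-specific and 18.2% of the P11-specific (others 16.1% and 21.3%), and 17.5% and 17.1% were over 20 kb away (others 26.6% and 18.6%). Runs of neighbouring regions of a single stage, with no region of any other class between them, held 432 (30%) of the P11-specific regions (others 27.1%) and 68 (14.3%) of the E21-specific (others 19.9%). The longest run on chromosome 17 had 5 P11-specific regions in 22.8 kb, at chr17:68486987-68509826. Runs of 4 P11-specific regions lay at chr17:1989276-2002933, chr17:13696608-13717837 and chr17:15058186-15084775, and 1 run of 4 E21-specific regions at chr17:86184710-86212306.

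Along the chromosome the excess of P11-specific regions was spread over nearly all windows of 1 Mb. P11-specific regions outnumbered E21-specific in 81 of 91 windows (89.0%), where 64.7% of the windows on the other numbered chromosomes did so. Taken singly, the other chromosomes ran from 47.8% on chromosome 10 to 82.1% on chromosome 9. E21-specific regions were the more numerous in 9 windows (9.89%, others 27.2%), and the remaining window had equal numbers. In 53 windows (58.2%, others 25.6%) the P11-specific were at least 3 times the E21-specific. With lists of equal length, the share of windows with more P11-specific regions was 78.0% on chromosome 17 and 42.0% on the others. A window of chromosome 17 held a median of 97 regions, of which 5 were E21-specific, 16 P11-specific and 36 shared. The medians on the other chromosomes were 85, 6, 10 and 30. The P11-specific count of a window went with its shared count more than with its E21-specific count, at Spearman's rho of 0.603 and 0.229 over the 91 windows. The E21-specific count also went with the shared count, at a rho of 0.442. The counts of a window come from the same stretch of DNA and the same libraries.

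**Figure D3:**
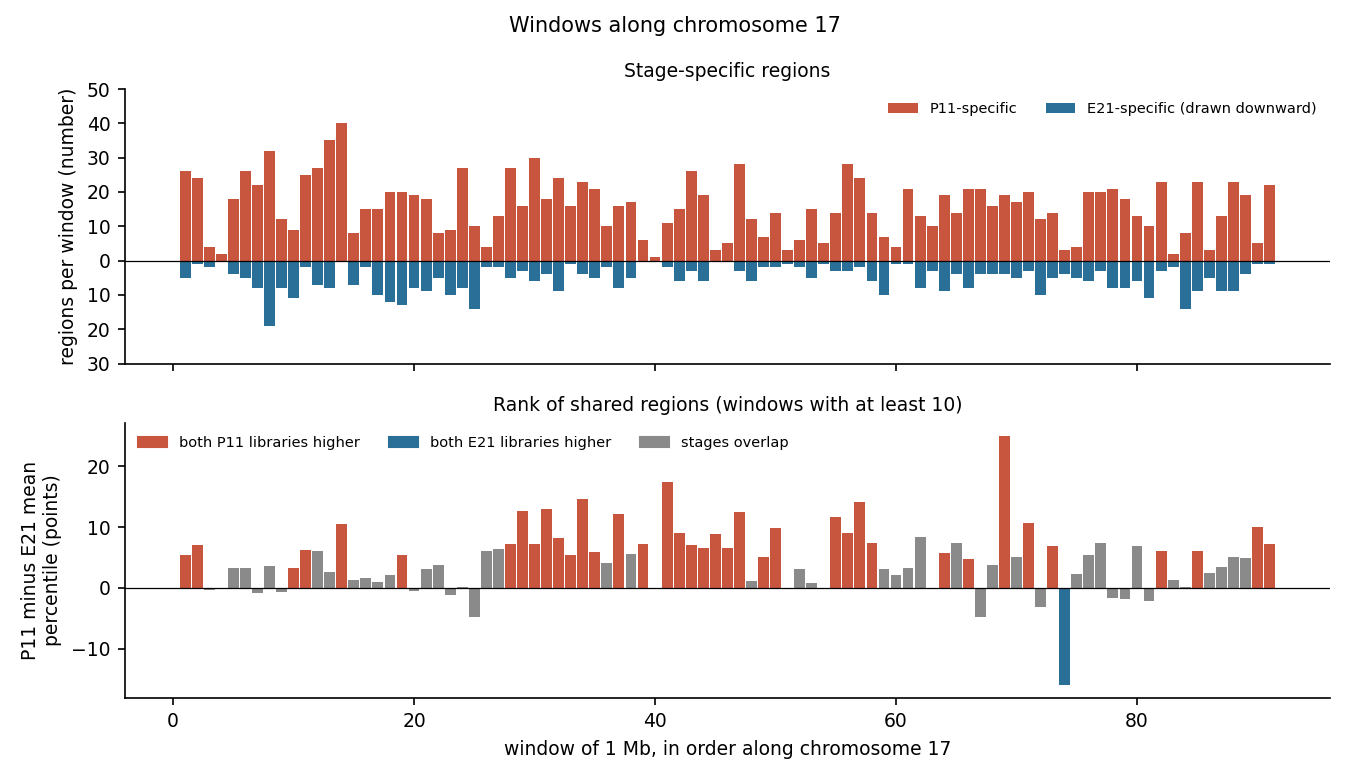
The upper panel counts P11-specific (up, red) and E21-specific (down, blue) regions in each 1 Mb window in order along chromosome 17, and the lower panel gives the P11 minus E21 mean percentile of shared regions for the 86 windows with at least 10 of them. The red bars are longer than the blue in 81 of 91 windows, and in the lower panel 38 windows are red and 1 is blue.

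The window from 13 to 14 Mb showed the largest excess. Its 192 regions included 40 P11-specific and no E21-specific, and its 73 shared regions had a mean percentile of 54.9 and 66.0 at E21 and of 69.1 and 72.6 at P11. The next largest excess was 27 in the window from 12 to 13 Mb, with 35 P11-specific and 8 E21-specific among 190 regions. That from 46 to 47 Mb had 28 and 3 among 140. The most crowded window, from 7 to 8 Mb with 193 regions, held 32 P11-specific and also 19 E21-specific regions, the most of any window of the chromosome. The 6 windows with no E21-specific region held between 6 and 192 regions.

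The windows with more E21-specific regions had small margins. The largest margins were 14 against 8 from 83 to 84 Mb, 14 against 10 from 24 to 25 Mb and 10 against 7 from 58 to 59 Mb. The windows with the fewest regions held 6 from 39 to 40 Mb, 8 from 3 to 4 Mb and 24 from 50 to 51 Mb, too few to compare the stages.

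In segments of 10 Mb the ratio was above 1 everywhere. The end of the chromosome past 90 Mb held only 67 regions, with 22 P11-specific and 1 E21-specific, and was left out of the order below. From the start of the chromosome to 90 Mb the 9 segments had ratios of 2.78, 3.25, 2.53, 4, 4.67, 3.53, 3.42, 2.5 and 1.93. Of 251 segments of the other numbered chromosomes with at least 300 regions, 40 had a ratio of at least 2.5 and 29 a ratio below 1, with a median of 1.65 and a 5th to 95th percentile of 0.868 to 3.09. The highest of these 9 ratios, from 40 to 50 Mb, came from 140 P11-specific and 30 E21-specific regions. The P11-specific share of regions was the largest of the 9 from 60 to 70 Mb, at 20.1%. The log2 pileup of shared regions, relative to the other chromosomes, differed between P11 and E21 by 0.26, 0.23, 0.24 and 0.19 in the 4 segments from 30 to 70 Mb and by 0.06 to 0.14 in the other 5. The local background was higher in the same 4 segments, at 0.16, 0.14, 0.20 and 0.14 against 0.03 to 0.11, and its part in the ratios was not tested.

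**Figure D4:**
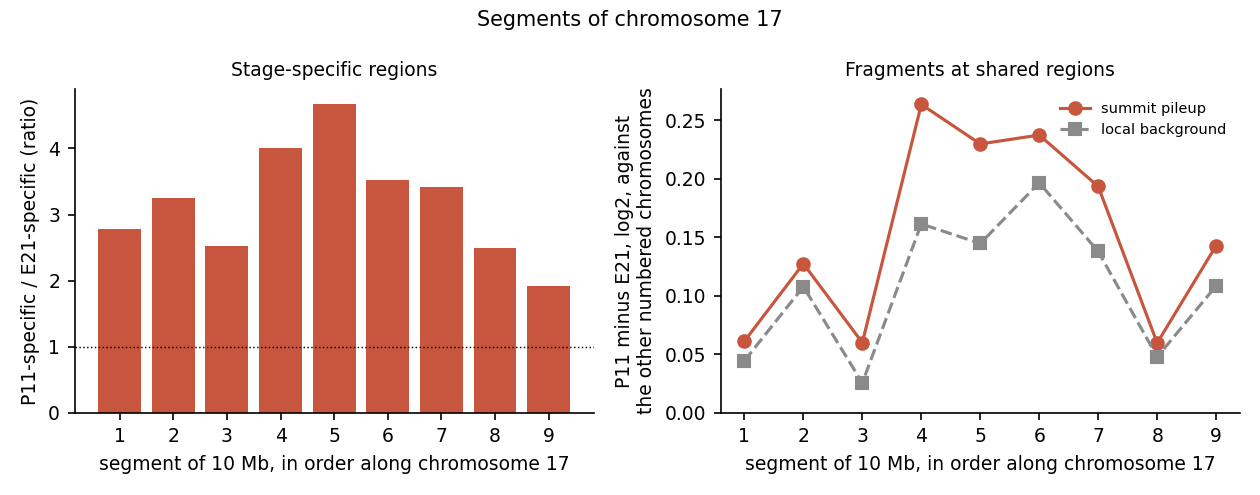
For the 9 segments of 10 Mb in order along chromosome 17, the left panel gives the number of P11-specific regions over that of E21-specific regions and the right panel the P11 minus E21 difference of log2 summit pileup (circles) and local background (squares) at shared regions, relative to the other numbered chromosomes. The bars are highest in segments 4 and 5 at 4 and 4.67, and both lines are higher in segments 4 to 7 than in the rest.

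In the lists as deposited, shared regions of chromosome 17 ranked higher at P11, where both lists were also longer than at E21. Of the 3247 shared regions the median percentile was 62.5 and 70.5 for E21 and 70.7 and 74.5 for P11, without overlap by a margin of under 1 point. On the other chromosomes the medians were 64.9, 72.0, 69.9 and 72.0 and overlapped. The median difference between stages was 2.75 points with an interquartile range from −5.67 to 16.5, against 0.598 points on the others, and it was the highest of the 20 chromosomes. The difference was positive in 60.2% of the regions (others 53.0%). Replicates differed by a median of 7.61 points at E21 and 6.76 at P11, and the means of the stages by 10.9 points. Across shared regions Spearman's rho was 0.896 between the E21 libraries, 0.860 between the P11 libraries and 0.622 to 0.652 between stages.

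A shared region was called rank-shifted where its 2 ranks at a stage were above its 2 ranks at the other and the means were 25 or more points apart. By this rule 492 regions (15.2%, others 12.1%) ranked higher at P11 and 215 (6.62%, others 8.72%) higher at E21. Taken singly, the other chromosomes ran from 8.12% to 14.3% for P11 and from 7.28% to 12.3% for E21. The ratio of P11 to E21 counts was 2.29 on chromosome 17, against 1.39 on the others. With lists of equal length, 357 regions ranked higher at P11 and 238 at E21 on chromosome 17, and 6777 and 7592 on the others, where the direction turned. The smallest difference inside the limit was 25.03 points and the largest outside it 24.94 toward P11, and toward E21 these were −25.01 and −24.98, so nothing in the values marks the limit. With no limit on size, 1255 regions (38.7%, others 32.7%) ranked higher in both P11 libraries and 684 (21.1%, others 27.1%) higher in both E21 libraries.

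**Figure D5:**
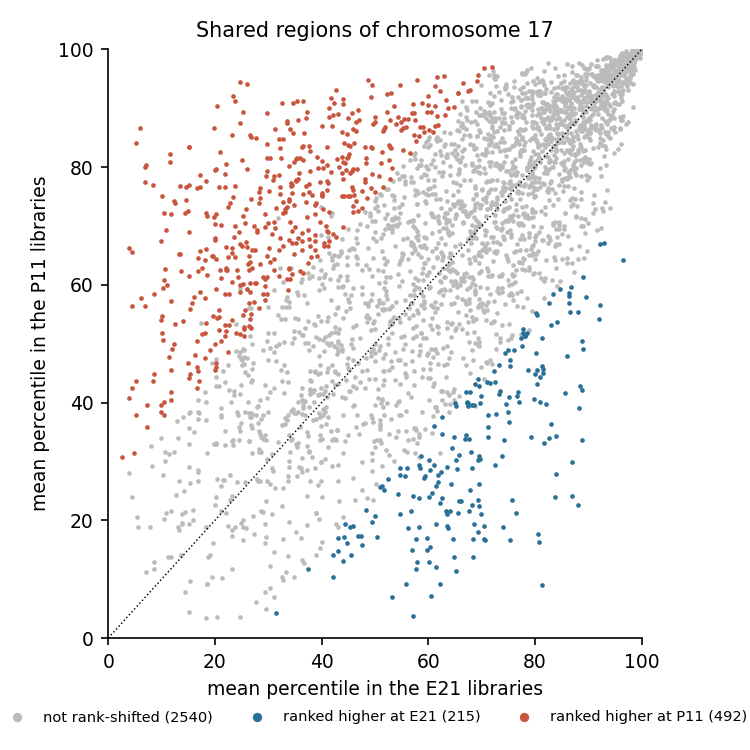
Each point is 1 of the 3247 shared regions of chromosome 17, at its mean percentile in the 2 E21 libraries (x axis) and in the 2 P11 libraries (y axis), with equal ranks on the dotted line. The 492 regions ranked higher at P11 (red) outnumber the 215 ranked higher at E21 (blue), and few of either lie among the strongest regions at the upper right.

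The share of rank-shifted regions was compared with that on the other chromosomes within classes of strength, since a mean percentile near 0 or 100 leaves no room for a shift of this size. Among shared regions whose mean percentile was from 25 to 50, 26.4% ranked higher at P11 and 14.04% higher at E21 (others 20.9% and 16.5%), with a median difference of 6.71 points (others 2.07). From 50 to 75 the shares were 21.6% and 8.53% (others 17.9% and 12.1%). Above 75, where 1184 of the shared regions lay, 1.86% and 0.338% shifted (others 1.37% and 0.627%). The median difference was higher than on the other chromosomes in all 4 classes of strength.

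The region that rose most, chr17:46857986-46858495, had percentiles of 0.932 and 11.1 at E21 and of 84.9 and 88.3 at P11, and its pileup went from 16 and 22 fragments to 57 and 70. It was among the weakest calls of both E21 lists and far above the median of both P11 lists. Another in the same window, chr17:46655588-46656201, went from 0.932 and 9.57 to 80.5 and 87.8. The other 3 of the 5 largest rises were chr17:68535889-68536555, chr17:67708721-67709138 and chr17:28957487-28958192, with differences of 73.2, 73.0 and 70.7 points. All 5 had between 16 and 22 fragments in the E21 libraries and between 41 and 70 in the P11 libraries.

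The largest fall was at chr17:44559016-44559815, with percentiles of 82.8 and 79.9 at E21 and 9.09 and 8.80 at P11 and a pileup of 80, 73, 17 and 17 fragments. Replicates agreed closely at this region. They did not at the next, chr17:78340777-78341185, where the percentiles were 81.5 and 94.5 at E21 but 42.9 and 2.20 at P11. The region chr17:18542271-18543097 fell from 86.7 and 87.3 to 24.6 and 23.6, again with close replicates. The other 2 of the 5 largest falls were chr17:83894976-83895742 and chr17:66859359-66860266, with differences of −64.4 and −63.0 points.

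The strongest shared regions were chosen for a high rank in each library, and their pileup was lower at P11. This was not particular to them. Over all shared regions of chromosome 17 the median pileup was 50 and 63 fragments at E21 and 42 and 48 at P11. These pileups were not scaled for depth. The genome-wide background pileup was also lower at P11, at 4.30 and 4.17 against 4.80 and 5.03 at E21. The leading region, chr17:3769650-3770641, lay in one of the emptiest windows of the chromosome and had 1063 and 991 fragments at E21 and 558 and 616 at P11, with a percentile above 99.98 in each library. Its fold was 34.0 and 33.1 before birth and 27.2 and 27.8 after it. The others of the top 5 were chr17:356478-357657, chr17:61234426-61235499, chr17:66294394-66295386 and chr17:47662057-47663238, and the 5 were between 992 and 1182 bp wide. The widest shared region, chr17:9952492-9955234, spanned 2743 bp and ranked at 78.8 and 79.1 at E21 and at 94.6 and 91.4 at P11.

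By window, the mean percentile of shared regions was higher in both P11 libraries in 38 of the 86 windows with at least 10 shared regions (44.2%, others 24%) and higher in both E21 libraries in 1 (1.16%, others 9.11%). With lists of equal length the second share was 16.7% on chromosome 17 and 36.0% on the others. The median difference of a window was 5.40 points (others 1.77), and it was positive in 74 of the 86. Many of the 38 windows were neighbours. A stretch of 8 followed each other from 27 to 35 Mb, with 175 P11-specific and 37 E21-specific regions, 7 from 40 to 47 Mb, with 107 and 20, and 4 from 54 to 58 Mb, with 80 and 14. In the stretch from 27 to 35 Mb, 55 of 269 shared regions ranked higher at P11 and 9 higher at E21. These windows were picked by the ranks of their shared regions, so this excess is built into the choice. Such stretches were not traced on the other chromosomes.

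The window from 68 to 69 Mb had the largest rise, 25.03 points, from a mean of 45.2 and 53.1 at E21 to 72.9 and 75.6 at P11. Of its 35 shared regions 18 ranked higher at P11 and none higher at E21, and it held 19 P11-specific and 4 E21-specific regions. Since the window was picked by the ranks of its shared regions, their excess toward P11 follows from the choice. The longest run of P11-specific regions and the rank-shifted region at chr17:68535889-68536555 both lay in it. The next largest rises were 17.5 points from 40 to 41 Mb and 14.6 points from 33 to 34 Mb. The window from 73 to 74 Mb was the only one of the 86 with the opposite separation, at 65.2 and 71.4 for E21 and 53.4 and 51.2 for P11, over 11 shared regions. It had 4 E21-specific and 3 P11-specific regions, and the next largest falls, with differences of −4.79 points from 24 to 25 Mb and −4.73 from 66 to 67 Mb, did not separate the libraries.

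Not every region was reproducible. Both E21 libraries had 4134 regions of chromosome 17, of which 11.5% were E21-specific (others 15.6%), and both P11 libraries had 5358, of which 26.9% were P11-specific (others 22.4%). Another 2593 regions (28.1%, others 27.4%) were called in a single library, 175 in E21 replicate 1, 661 in E21 replicate 2, 662 in P11 replicate 1 and 1095 in P11 replicate 2. Of the 1084 regions (11.8%, others 12.5%) called in 3 libraries, 576 were missed only by E21 replicate 1, 95 only by E21 replicate 2, 267 only by P11 replicate 1 and 146 only by P11 replicate 2. A further 378 regions (4.10%, others 3.87%) were called in 1 library of each stage. These 3 shares were close to those on the other chromosomes. The shortest list thus missed the most regions that the other libraries shared. Without E21 replicate 1 the E21-specific regions numbered 1143, the P11-specific 1537 and their ratio was 1.35 on chromosome 17, against 0.834 on the others. An E21-specific region then needed a call in E21 replicate 2 alone, while a P11-specific region still needed both P11 libraries. The E21-specific count and the ratio thus rest on a looser rule for E21, on chromosome 17 as on the others.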

How the data were processed

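Per the study's methods, the authors mapped reads and called OCRs with AIAP, an ATAC-seq pipeline, in each library without pooling. The submitters' processing notes name MACS2 and the build Rnor_6.0 (rn6), with no version or settings. The deposited lists give for each OCR a score, the fold at the summit (a ratio to local background), and −log10 p and q values. The lowest −log10 q on chromosome 17 was between 2.02 and 2.12 in the deposited lists. The authors' differential test on reads was not rerun, since the lists hold no reads per region.

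The score was not used. OCRs were ranked by −log10 q within each whole list, as percentiles, and each region was given its highest rank. The pileup and local background were solved from the fold and the −log10 p value as a Poisson tail. Python 3.11.15, numpy 2.4.6, pandas 2.3.3 and scipy 1.17.1 were used, and the scripts were tested on simulated lists. The planned exact permutation test of values per library cannot go below p = 0.333 with 2 libraries per stage, and no p is printed because the same calls chose the members. Groups came from GEO's labels, and windows of 1 Mb started at position 0. The alternatives were other limits on q, fold or rank, lists of equal length, other merging and windows, a replicate block, and each library left out in turn.

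The named regions were, by rule, the 6 strongest stage-specific regions of each stage by the lower of their percentiles, the 5 largest rank shifts each way, the 5 strongest shared regions and the top 3 windows of each kind. Windows with the largest rise and fall in rank, runs and the widest region were added to these. The members, lists and rules were chosen with earlier results of these data known. Sequence features, motifs and distances to genes had been planned and were not run, because no genome or annotation of rn6 was used here.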

Additional observations from a re-analysis of the deposited data

How the results depend on the processing

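By P11-specific over E21-specific regions, chromosome 17 stayed first of the 20 numbered chromosomes in all 8 settings so ordered, the main one included. The chromosomes were not ordered with reciprocal overlap, other merging or the replicate block. No ratio of stage-specific regions and no P11 minus E21 difference per library changed direction on chromosome 17, and counts have no direction to change. All settings reuse the calls that chose the members. Leaving out a library drops a condition from the rules for stage-specific and rank-shifted regions. Counts with a library left out, here and below, thus follow looser rules than the main counts. The E21-specific count ran from 624 to 1143 with a library left out (highest without E21 replicate 1, and 749 without P11 replicate 2) and was 736 with a reciprocal overlap of 50%. The P11-specific count ran from 1537 to 2583 (highest without P11 replicate 1) and was 908 at a fold of at least 4. Their ratio ran from 1.35 to 4.14 with a library left out and was 1.84 with lists of equal length. Relative to the other chromosomes the ratio ran from 1.61 to 1.83 with a library left out and was 1.59 with reciprocal overlap.

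The shared regions ranked higher at P11 numbered 504 to 751 with a library left out (highest without E21 replicate 2), 209 with reciprocal overlap, 921 at a limit of 10 points and 205 at 40 points. Those ranked higher at E21 numbered 195 to 365 (highest without P11 replicate 2), 120, 475 and 67 in the same order. The share of windows with more P11-specific regions was 78.0% with lists of equal length. The share of windows higher in both E21 libraries was 16.7% with lists of equal length and 0% with windows of 2 Mb. The causes were not tested.

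The deviations of same-numbered libraries correlated at 0.0103 over the shared regions of chromosome 17, so their ranks showed no pairing by replicate number. With 2 libraries per stage this cannot tell whether same-numbered libraries were handled together. With a replicate block the ratio was 2.33, the ratio relative to the other chromosomes 1.57, and 304 and 107 shared regions ranked higher at P11 and at E21. With 2 libraries per stage, list length and depth limit every count.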
